A study of Mus musculus with 2 samples.

Results

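Interferon-stimulated genes are genes whose transcription rises when a cell senses an interferon. A set of 45 such mouse genes, fixed by symbol, was followed in immune cells of the aortic adventitia at steady state and during infusion of angiotensin II (AngII). All 45 symbols were found among the 55386 features of the count tables, and all 45 had at least 1 UMI (unique molecular identifier, which counts 1 captured transcript molecule) in the kept cells of each library. The cells came from *Rank*Cre *Rosa26*eYFP mice of 16 weeks, in which Cre recombinase made from the *Rank* gene (*Tnfrsf11a*) switches on an eYFP reporter that descendants of the cell keep. Both groups carried these alleles. Mice of the AngII group received 1.8 µg AngII per kg and minute for 10 days, and those of the steady state group received no treatment. CD45-positive cells were sorted from whole aortas, pooled from 3 animals at steady state and 2 on AngII, and each pool gave 1 droplet library. With 1 library per condition, no difference has a replicate check and no test was made. The intervals given are 95% intervals that cover counting error only.

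Type I interferons (interferon-α and -β) bind a receptor of the subunits IFNAR1 and IFNAR2, and its kinases JAK1 and TYK2 pass the signal to transcription factors that include STAT2 and IRF9, which bind the interferon-stimulated response element (ISRE) in promoters. Interferon-γ acts through another receptor and the GAS element, and many genes respond to both. The products bind or degrade viral RNA, block viral entry or budding, or amplify the response, and macrophages and monocytes are among the cells in which such programmes are well known.

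The promoters were examined for the letters of the ISRE and the GAS element, which the choice by symbol did not use. The shares below describe the gene list and use no value from the libraries. A RefSeq promoter on GRCm38.p6, from 250 bases before the start of transcription to 50 after it, was found for 36 of the 45 genes. An ISRE match, spelled GAAANNGAAA on either strand, was present in 22 of these 36 (61.1%), against 1079 of all 27025 genes with such a promoter (3.99%). A gene counted where any of its promoters held the letters. The GAS spelling TTCNNNGAA was present in 7 of 36 (19.4%), against 2582 of 27025 (9.55%). The windows below come from genes on which the later results turn, read on the strand of the gene, with the ISRE letters in capitals (TTTCNNTTTC where the match lies on the other strand) and 16 bases on each side. *Isg15* (chr4:156200859-156200912, minus strand) and *Ifit1* (chr19:34640769-34640829, plus strand) were higher on AngII in each of the 4 cell classes compared, and *Oas3* (chr5:120777709-120777750, minus strand) is the 2'-5' oligoadenylate synthetase with the largest ratio in resident macrophages. *Ifit3* (chr19:34583357-34583432, plus strand) has the same window, letter for letter, as its neighbour *Ifit3b* (chr19:34607753-34607828, plus strand). *Ifi207* (chr1:173741825-173741866, minus strand) and *Ifi205* (chr1:174031864-174031905, minus strand) are relatives within 1 gene cluster whose ratios lay on different sides of 1 in resident macrophages.
Isg15: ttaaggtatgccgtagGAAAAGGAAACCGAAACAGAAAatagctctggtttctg
Ifit1: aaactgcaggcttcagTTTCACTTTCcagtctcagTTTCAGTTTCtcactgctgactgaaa
Ifit3 and Ifit3b: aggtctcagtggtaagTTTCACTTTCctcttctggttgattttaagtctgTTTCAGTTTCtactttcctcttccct
Oas3: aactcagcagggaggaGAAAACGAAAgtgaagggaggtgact
Ifi207: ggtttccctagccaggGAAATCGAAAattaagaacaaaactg
Ifi205: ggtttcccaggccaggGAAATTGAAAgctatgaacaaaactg

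The window of *Isg15* held 3 overlapping matches, and those of *Ifit1* and *Ifit3* held 2 each. Among the genes with a promoter, no match to these letters was present in the windows of *Irf7*, *Irf9*, *Ifit2*, *Oasl1*, *Oasl2*, *Herc6*, *Cmpk2*, *Isg20*, *Ifi209*, *Ifi47*, *Ifi44*, *Phf11d*, *Samd9l* and *Xaf1*, which says only that these letters were not there. Several members lie side by side in the genome (GENCODE M21, GRCm38), including the 4 *Ifit* genes at chr19:34550694-34650009, 6 genes of the *Ifi200* family at chr1:173566283-174031810 and *Oas1a*, *Oas2* and *Oas3* at chr5:120730333-120907521. Related genes share stretches of transcript, so that the split of UMIs between them is uncertain. Of the 31-base words of the *Ifit3* transcripts, 61.8% also occurred in *Ifit3b*, and of those of *Ifi211*, 49.5% occurred in *Ifi205* and 38.6% in *Ifi204*.

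The libraries differed in size and depth. After the cell filter, 306 cells with a median of 9105 UMIs remained at steady state and 4198 cells with a median of 1092 UMIs on AngII, and no cell barcode was shared between them. Each cell was placed in a class by the highest score over 18 lists of marker genes, and classes are named below as gates, since they rest on these markers alone. A cell without a clear top score was left as mixed, which was the case for 17 cells at steady state and 1285 on AngII, where a further 61 had no score. In the non-immune gate there was 1 cell, at steady state. Doublets were not removed. Levels are CPM, the UMIs of a gene or gene set in a class scaled to 1000000 UMIs of that class. A ratio between conditions was computed in the 4 gates that held at least 20 cells in both libraries.

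In the AngII library the classical monocyte gate carried the highest summed level of the 45 genes among the 13 gates of at least 20 cells. Over all kept cells, the set took 2946 CPM at steady state (10747 UMIs) and 4813 CPM on AngII (86669 UMIs). The 168 cells of the classical monocyte gate held 9091 CPM (8911 to 9274). The mast cell gate followed with 7582 CPM (6667 to 8586), from 26 cells and 248 UMIs of the set. It was followed in turn by the resident macrophage gate (703 cells, 5797 CPM, 5716 to 5878), the type-2 macrophage gate (332 cells, 5559 CPM, 5440 to 5679), the nonclassical monocyte gate (37 cells, 5323 CPM, 5018 to 5643) and the type-2 conventional dendritic cell gate (100 cells, 5002 CPM, 4863 to 5143). The intervals of the type-2 macrophage and nonclassical monocyte gates overlapped, as did those of the latter and the type-2 dendritic cell gate. Levels near 4000 CPM were found in the neutrophil (4100 CPM), B cell (4010 CPM), shared macrophage (3937 CPM) and reparative macrophage (3921 CPM) gates, and their intervals overlapped. The type-1 conventional dendritic cell gate held 3215 CPM, and the lowest levels were those of the T cell gate with 1544 CPM (1476 to 1614) and the migratory dendritic cell gate with 1394 CPM (1273 to 1522).

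**Figure D1:**
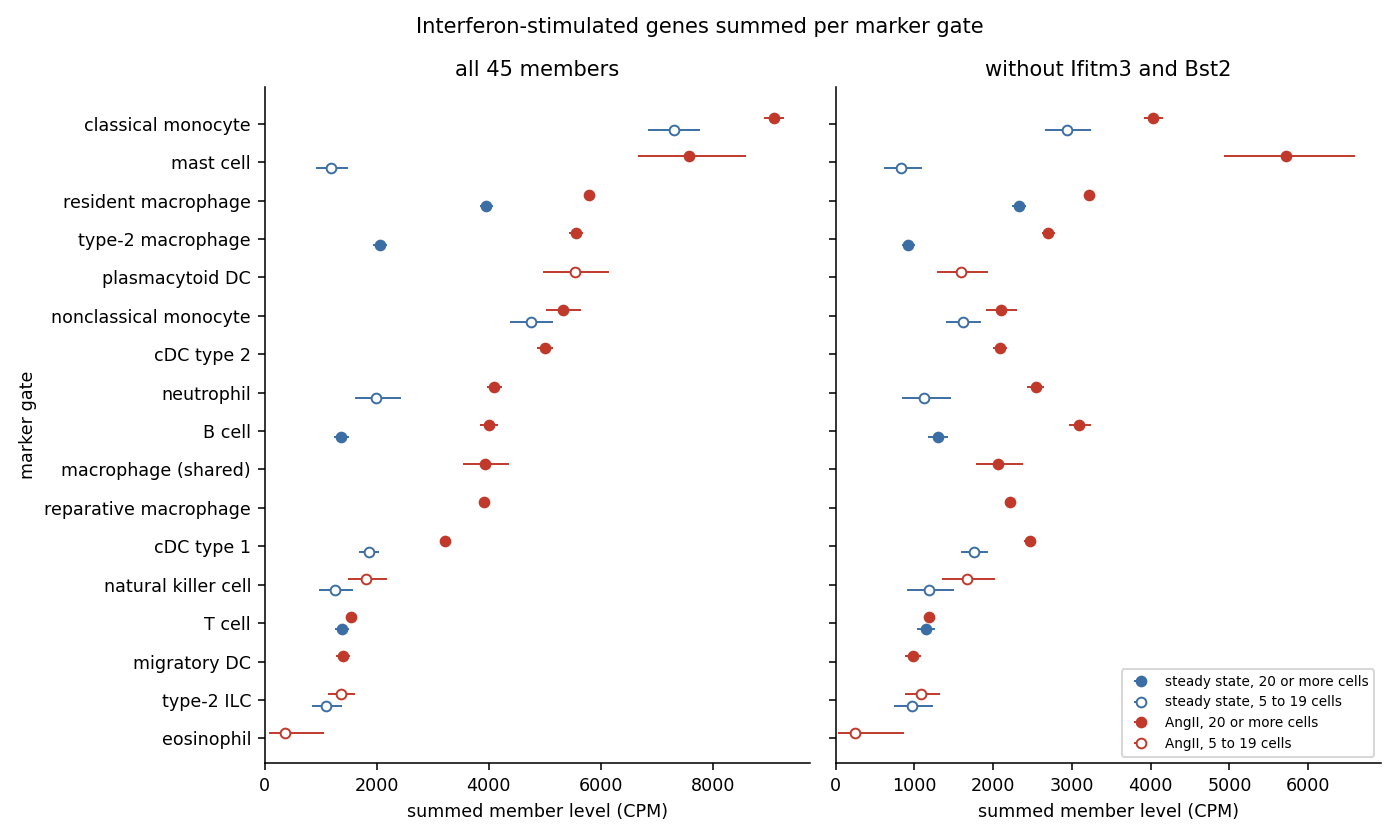
Summed level of the 45 interferon-stimulated genes (x axis, CPM) in each marker gate (y axis) at steady state and on AngII, with exact Poisson 95% intervals for counting error as bars and open symbols for gates of 5 to 19 cells. On AngII the classical monocyte gate lies highest of the gates of at least 20 cells with 9091 CPM, and the T cell and migratory dendritic cell gates lie lowest with 1544 and 1394 CPM.

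A single gene made up most of the classical monocyte level. *Ifitm3*, which encodes a membrane protein that blocks entry of viruses from endosomes, gave 52.9% of the UMIs of the set in this gate on AngII and 57.6% in the 9 cells of the same gate at steady state. *Ifitm3* alone stood at 4811 CPM (4681 to 4945) there, against 2984 CPM in the nonclassical monocyte gate and 2514 CPM in the type-2 macrophage gate. The T cell gate held 237 CPM of *Ifitm3* in cells with a median of 1022 UMIs, against a median of 1875 UMIs in the classical monocyte gate. The part of free RNA in these levels was not tested. Without *Ifitm3* and *Bst2*, the 43 other genes took 4029 CPM (3909 to 4151) in the classical monocyte gate, 3220 CPM in the resident macrophage gate and 3095 CPM in the B cell gate. The mast cell gate then stood higher, at 5717 CPM (4927 to 6597). Mast cell markers summed to 98866 CPM in it with all 11 detected, while 5 of 14 neutrophil markers summed to 5961 CPM and 8 of 10 shared macrophage markers to 3332 CPM, and the part of these in its level was not tested.

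At steady state the resident macrophage gate was the highest of the gates that could be read. The resident macrophage (112 cells, 3952 CPM, 3838 to 4069), type-2 macrophage (20 cells, 2060 CPM, 1936 to 2190), T cell (37 cells, 1381 CPM, 1259 to 1513) and B cell (51 cells, 1361 CPM, 1233 to 1499) gates were those with at least 20 cells, and the intervals of the last pair overlapped. The 9 cells of the classical monocyte gate held 7298 CPM (6851 to 7766), the 12 of the nonclassical monocyte gate 4751 CPM (4380 to 5145), the 5 neutrophil gate cells 1996 CPM (1621 to 2433) and the 9 mast gate cells 1180 CPM (922 to 1488). In these small gates 1 cell gave from 19.8% (nonclassical monocyte) to 48.0% (neutrophil) of the UMIs of the set.

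By the share of all UMIs of the set, resident macrophages were the main carrier at steady state with 42.5%. Their gate there held 36.6% of the cells and 31.7% of the UMIs of all genes. On AngII their gate gave 22.6% from 16.75% of the cells and 18.8% of the UMIs of all genes. The classical monocyte gate gave 11.2% from 4.0% of the cells and 5.93% of those UMIs. The type-2 macrophage gate gave 9.62%, the reparative macrophage gate 7.12%, the type-1 and type-2 conventional dendritic cell gates 6.43% and 5.73%, the neutrophil gate 4.34%, the B cell gate 2.79% and the T cell gate 2.26%. Mixed cells gave 24.5% on AngII and 10.8% at steady state.

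The question of which cells carried the response was then put within gates. In the resident macrophage gate the summed level was 3952 CPM at steady state and 5797 CPM on AngII, a ratio of 1.47 (1.42 to 1.51). Of its 45 genes, 13 were at least 2-fold higher on AngII, against 8.20% of all 9987 genes with at least 20 UMIs, and 0 were at least 2-fold lower, against 8.06% of all genes. The ratio was above 1 for 40 genes, and the median ratio was 1.60, beside 0.998 over all genes. This ratio did not hold in every selection of cells. When cells holding markers of an unrelated lineage were left out, 27 and 478 cells remained, the levels were 5601 CPM at steady state and 5261 CPM on AngII, and the ratio was 0.939 with 1 gene at least 2-fold higher and 7 lower. The number of genes with at least 20 UMIs in that selection was not recorded. Leaving out in addition the richest cell of the set in each library gave 1.19. The markers of the gate itself also moved, with the 16 resident macrophage markers at 18762 CPM at steady state and 9284 CPM on AngII and the 10 shared macrophage markers at 36897 and 36346 CPM, and their part in the ratio was not tested.

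The type-2 macrophage gate stood at 2060 CPM at steady state and 5559 CPM on AngII, a ratio of 2.70 (2.53 to 2.88). Of 42 genes with at least 20 UMIs, 32 were at least 2-fold higher, against 9.30% of all 7678 genes, and 0 were at least 2-fold lower, against 6.13%. The median ratio was 3.47, or 3.30 with genes at 0 UMIs at steady state set to their bound (taken against 3 UMIs), beside 1.03 over all genes. Its steady state side rests on 20 cells, and 1 of them gave 16.1% of the UMIs of the set. Markers moved in this gate as well. Shared macrophage markers went from 6719 CPM with 9 of 10 detected (*Cd72* at 0) to 12267 CPM with all 10 detected. Of the gate's own markers, *Retnla* stood at 31381 CPM at steady state and 8089 CPM on AngII, and *Ear2* at 1037 and 940 CPM. The part of these in the ratio was not tested. With each cell thinned to 1000 UMIs, the summed ratio was 2.26 and 6 genes passed 2-fold. The floor of 20 UMIs was kept on thinned counts and the number of genes reaching it was not recorded. The 6 therefore cannot be set against 32 of 42.

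The B cell gate held 1361 CPM at steady state and 4010 CPM on AngII, a ratio of 2.95 (2.65 to 3.28). Of 33 genes, 25 were at least 2-fold higher, against 12.0% of all 5561 genes, and 0 were at least 2-fold lower, against 5.84%. The median ratio was 4.36, or 3.52 with genes at 0 set to their bound, beside 0.976 over all genes. Shared macrophage markers moved with it, from 1572 CPM with 8 of 10 detected (*Adgre1* and *Mertk* at 0) to 8454 CPM with all 10 detected, and the 13 B cell markers from 32692 to 16602 CPM. Among cells without a UMI of *C1qa*, *C1qb* or *C1qc*, which are macrophage genes, 40 steady state cells held 1330 CPM and 68 AngII cells 4108 CPM, a ratio of 3.09 (2.71 to 3.52) with 16 genes at least 2-fold higher. Without cells holding markers of an unrelated lineage 7 and 18 cells remained, the ratio was 2.01 and 0 genes were at least 2-fold higher, and leaving out the richest cell as well gave 1.63. Thinned to 1000 UMIs per cell, 3 genes were at least 2-fold higher.

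Levels in the T cell gate were 1381 CPM at steady state and 1544 CPM on AngII, a ratio of 1.12 (1.01 to 1.24), and without *Ifitm3* and *Bst2* the ratio was 1.03 (0.919 to 1.15). Of 33 genes, 13 were at least 2-fold higher, against 22.3% of all 7702 genes, and 4 were at least 2-fold lower, against 7.14%. With *Ifi205* set to its bound 12 were higher. The median ratio of 1.60 stood beside 1.20 over all genes, so that the median gene of this gate also lay above 1. The summed ratio lay on both sides of 1 across alternatives. It was 2.0 and 1.44 with each cell thinned to 1000 and 2000 UMIs, 1.76 as the mean over cells and 0.935 with cells of at least 4000 UMIs alone. Without cells holding markers of an unrelated lineage it was 0.780 from 2 and 71 cells, with 0 genes past 2-fold.

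**Figure D2:**
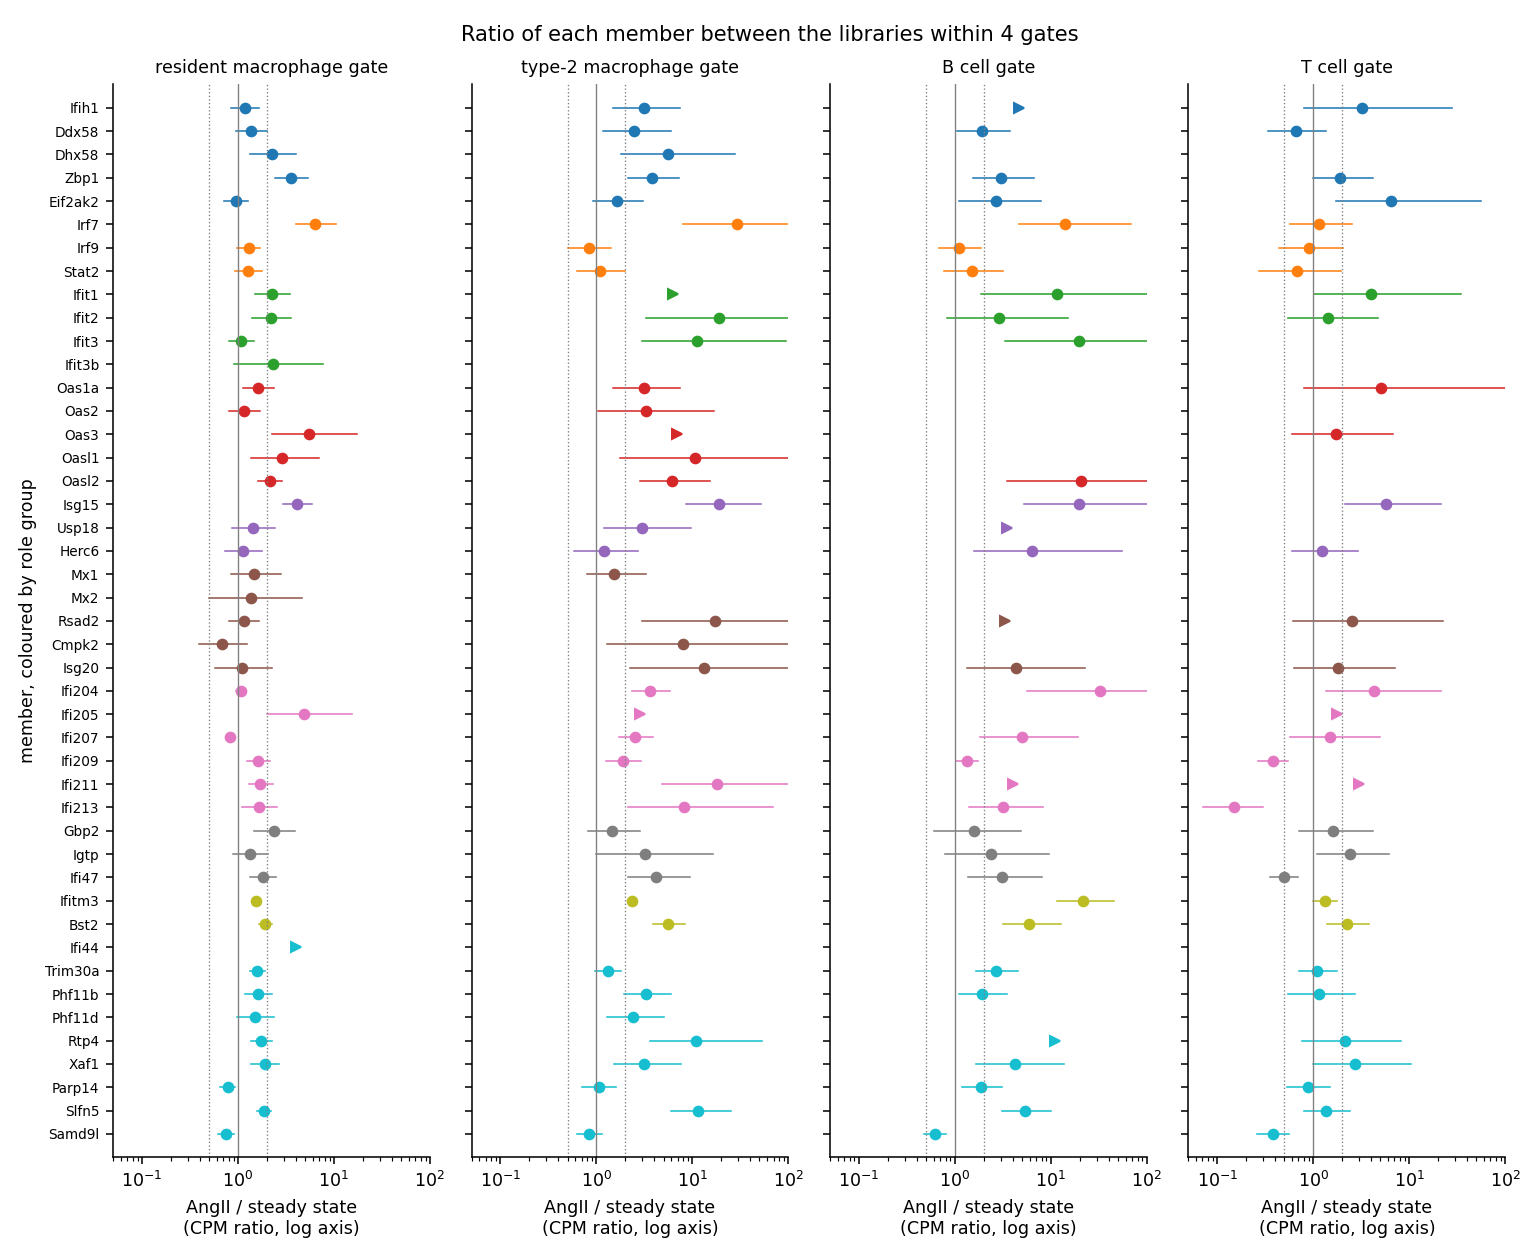
Ratio of AngII to steady state CPM (log axis) for each of the interferon-stimulated genes in the resident macrophage, type-2 macrophage, B cell and T cell gates. Bars are 95% intervals for counting error, and triangles mark lower bounds for genes with 0 UMIs at steady state, taken against 3 UMIs. The ratio was above 1 for 40 of 45 genes in the resident macrophage gate and for 32 of 33 in the B cell gate.

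The sensors of foreign nucleic acid detect viral RNA or unusual DNA and RNA forms in the cytosol. As a group they took 178 CPM at steady state and 279 CPM on AngII in the resident macrophage gate (ratio 1.57), 94.5 and 271 CPM in the type-2 gate (2.87), 105 and 309 CPM in the B cell gate (2.93) and 83.2 and 146 CPM in the T cell gate (1.76). *Zbp1*, a sensor of Z-form nucleic acid, stood at 26.0 CPM at steady state and 92.4 CPM on AngII in the resident gate, a ratio of 3.56 (2.44 to 5.36). *Dhx58*, which encodes the regulator LGP2 of the RIG-I receptors, had 14.7 CPM at steady state and 33.2 CPM on AngII there, a ratio of 2.25. The RNA sensors *Ifih1* (MDA5) and *Ddx58* (RIG-I) had ratios of 1.18 and 1.38 in that gate, with intervals that held 1. *Eif2ak2*, the kinase PKR that halts translation on double-stranded RNA, had 61.5 CPM at steady state and 58.0 CPM on AngII (0.944, 0.716 to 1.26).

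Among the transcription factors, *Irf7* had the largest ratio in each of the 4 gates, though in the T cell gate its interval held 1. This master regulator of interferon-α genes stood at 16.5 CPM at steady state and 104 CPM on AngII in the resident gate, a ratio of 6.32 (3.99 to 10.6). In the type-2 gate it had 2 UMIs (4.02 CPM) and 176 UMIs (117 CPM), a ratio of 29.2 with a counting interval from 7.96 to 243. In B cells it was at 9.89 and 138 CPM (13.9, 4.61 to 68.9), and in T cells at 29.7 and 34.0 CPM (1.14, 0.566 to 2.55). Outside the T cell gate the other transcription factors of the set differed less. *Irf9* had ratios of 1.29, 0.837, 1.11 and 0.904 in the resident, type-2, B and T cell gates. *Stat2* had 1.28, 1.09, 1.51 and 0.684 in the same order, and each of these 8 intervals held 1. On AngII the 15 cells of the plasmacytoid dendritic cell gate, a type known for constant *Irf7* expression, held 333 CPM of *Irf7* (206 to 509).

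The *Ifit* genes encode proteins that bind viral RNA with foreign 5' ends. Summed over the 4, they took 97.0 CPM at steady state and 159 CPM on AngII in the resident gate (1.64, 1.33 to 2.02). The sum was 6.03 CPM (3 UMIs) and 131 CPM in the type-2 gate (21.7, 7.31 to 106), 16.5 and 144 CPM in the B cell gate (8.76, 3.61 to 27.7), and 32.7 and 52.1 CPM in the T cell gate (1.59, 0.836 to 3.35). Within the resident gate the members were uneven. *Ifit1* had 23.4 CPM at steady state and 52.7 CPM on AngII (2.25, 1.5 to 3.52), *Ifit2* 19 and 41.7 CPM (2.19) and *Ifit3b* 4.33 and 10.1 CPM (2.32, 0.905 to 7.62), whereas *Ifit3* had 50.2 and 54.2 CPM (1.08, 0.799 to 1.48). *Ifit3* and *Ifit3b* share sequence, as given above. In the type-2 gate *Ifit1* had 0 UMIs at steady state and 57 on AngII (38.0 CPM), which makes it at least 6.30-fold higher. The 26 cells of the mast cell gate on AngII held 917 CPM of the *Ifit* genes (619 to 1309) from 30 UMIs. Its 9 cells at steady state held 0 UMIs.

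The 2'-5' oligoadenylate synthetases make the messenger that activates RNase L, and the Oasl proteins are their relatives. Together the 5 genes took 129 CPM at steady state and 245 CPM on AngII in the resident gate (1.90, 1.59 to 2.28), 38.2 and 219 CPM in the type-2 gate (5.73), 13.2 and 158 CPM in the B cell gate (12.0) and 20.8 and 52.9 CPM in the T cell gate (2.54, 1.17 to 6.57). *Oas3* stood at 4.33 and 23.7 CPM in the resident gate (5.47, 2.25 to 17.3) and at 0 UMIs and 42.0 CPM in the type-2 gate, at least 6.97-fold higher. *Oasl2* had 51.1 and 110 CPM in the resident gate (2.16) and *Oasl1* 6.93 and 19.8 CPM (2.86). *Oas1a* and *Oas2* differed less there, with ratios of 1.60 and 1.16.

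ISG15 is a ubiquitin-like protein that is attached to other proteins, USP18 removes it and brakes the receptor, and HERC6 is its mouse ligase. *Isg15* stood at 31.2 CPM at steady state and 128 CPM on AngII in the resident gate (4.10, 2.92 to 5.94). It was at 12.1 and 229 CPM in the type-2 gate (19, 8.63 to 52.1), at 6.59 and 130 CPM in the B cell gate (19.6, 5.26 to 165) and at 11.9 and 67.9 CPM in the T cell gate (5.71, 2.15 to 21.4). *Isg15* was thus past 2-fold in each of the 4 gates. *Usp18* had ratios of 1.42 in the resident and 2.99 in the type-2 gate and was at least 3.52-fold higher in B cells, and *Herc6* had 1.12, 1.19 and 6.30 in the resident, type-2 and B cell gates.

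The group of *Mx1*, *Mx2*, *Rsad2*, *Cmpk2* and *Isg20* holds the family of dynamin-like GTPases that trap viral particles. It also holds the viperin enzyme that makes a chain-terminating nucleotide, its partner kinase and an RNA exonuclease. *Mx2* is annotated as a polymorphic pseudogene, so its transcripts are not read as a working protein. In the resident gate this group was at 80.5 CPM at steady state and 89.1 CPM on AngII, with an interval of the ratio that held 1 (1.11, 0.874 to 1.41). In the type-2 gate it was at 30.2 and 116 CPM (3.85) and in the B cell gate at 23.1 and 118 CPM (5.11). *Rsad2*, which encodes viperin, had 34.6 and 39.7 CPM in the resident gate (1.15, 0.799 to 1.67) but 1 UMI and 34.7 CPM in the type-2 gate (17.2, 2.96 to 694). Its neighbour *Cmpk2* had the lowest ratio of the set in the resident gate, 17.3 and 11.8 CPM (0.684, 0.391 to 1.24). Neutrophil gate cells on AngII held the highest *Rsad2* level, 109 CPM (88.6 to 132), and *Isg20* was also highest there with 51.2 CPM.

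The *Ifi200* genes encode PYHIN proteins, many of which bind DNA. In resident macrophages they had the ratio closest to 1 of the 10 groups, with 850 CPM at steady state and 904 CPM on AngII (1.06, 0.989 to 1.14). In the type-2 gate they took 165 and 530 CPM (3.22), in the B cell gate 300 and 637 CPM (2.12) and in the T cell gate 264 and 177 CPM (0.669, 0.521 to 0.865). *Ifi207* stood at 431 CPM at steady state and 357 CPM on AngII in the resident gate (0.829, 0.746 to 0.922), whereas its relative *Ifi205* stood at 4.33 and 21.0 CPM (4.86, 1.99 to 15.4). *Ifi204* had 280 and 300 CPM in that gate (1.07), and 1 UMI and 106 CPM in the B cell gate (32.2, 5.58 to 1293). In the T cell gate *Ifi209* had 166 and 63.2 CPM (0.380, 0.267 to 0.544) and *Ifi213* 74.3 and 11.1 CPM (0.149, 0.0715 to 0.298), so that both lay below 1 where the other gates had them above 1.

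The type-1 conventional dendritic cell gate, whose cells present antigen to CD8 T cells, stood out in *Ifi205* and *Ifi211*, which share sequence as given above. *Ifi205* stood at 381 CPM (306 to 469) in 11 steady state cells and at 750 CPM (710 to 792) in 176 AngII cells, and was found in 11 and 113 of them. *Ifi211* stood at 240 CPM (181 to 311) and 260 CPM (237 to 286). Both were highest in this gate among the 13 gates of the AngII library, and in the resident gate on AngII they were at 21.0 and 90.6 CPM. The next highest levels on AngII were 245 CPM of *Ifi205* in the mast cell gate and 153 CPM of *Ifi211* in the classical monocyte gate. *Ifi209* was highest in the B cell gate with 345 CPM.

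Among the interferon-inducible GTPases, which attack vacuoles that hold microbes, *Gbp2* had 18.2 CPM at steady state and 42.6 CPM on AngII in the resident gate (2.35, 1.48 to 3.90). Its highest level on AngII was 56.5 CPM in the migratory dendritic cell gate. *Ifi47* was at 43.3 and 78.2 CPM in the resident gate (1.81) and at 166 and 82.1 CPM in the T cell gate (0.494, 0.353 to 0.696). *Igtp* had 26.8 and 35.5 CPM in the resident gate (1.32), and the T cell gate held its highest level on AngII, 49.8 CPM.

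The membrane restriction factors were the most abundant group in the resident and type-2 macrophage gates of both libraries. *Ifitm3* stood at 1446 CPM at steady state and 2236 CPM on AngII in the resident gate (1.55, 1.47 to 1.63), at 1079 and 2514 CPM in the type-2 gate (2.33, 2.13 to 2.55), at 178 and 237 CPM in the T cell gate (1.33, 1.0 to 1.78) and at 33.0 and 717 CPM in the B cell gate (21.8, 11.7 to 45.7). In T cells of the steady state library *Ifitm3* followed *C1q*, with 3.90 CPM (1 UMI) in 29 cells without a *C1q* UMI and 737 CPM in 8 cells with one. In the B cell gate on AngII it stood at 477 CPM in cells without and 882 CPM in cells with a *C1q* UMI. *Bst2*, which encodes tetherin and holds budding virus at the cell surface, had 178 and 340 CPM in the resident gate (1.92, 1.65 to 2.24), 62.3 and 349 CPM in the type-2 gate (5.60) and 33.0 and 198 CPM in the B cell gate (5.99). The 15 cells of the plasmacytoid dendritic cell gate held 3839 CPM of *Bst2* (3370 to 4354), a known marker of that type.

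Of the other members, *Slfn5*, a Schlafen family gene, had 138 CPM at steady state and 259 CPM on AngII in the resident gate (1.87) and 18.1 and 207 CPM in the type-2 gate (11.4, 5.94 to 25.2). *Rtp4* had 0 UMIs and 109 CPM in the B cell gate, at least 11.1-fold higher, and 6.03 and 65.4 CPM in the type-2 gate (10.8). *Ifi44* had 0 UMIs and 10.4 CPM in the resident gate, at least 3.99-fold higher. *Trim30a* was highest in the neutrophil gate on AngII with 255 CPM. At the other end, *Samd9l*, which encodes a SAM domain protein with antiviral activity, had ratios below 1 in each of the 4 gates, with 132 and 98.6 CPM in the resident gate (0.744, 0.613 to 0.907), 133 and 111 CPM in the type-2 gate (0.840, 0.628 to 1.13), 148 and 56.1 CPM in the T cell gate (0.378) and 369 and 229 CPM in the B cell gate (0.620). *Parp14*, an ADP-ribosyltransferase, had 149 and 116 CPM in the resident gate (0.781, 0.652 to 0.94) but 79.1 and 148 CPM in the B cell gate (1.87, 1.18 to 3.07).

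**Figure D3:**
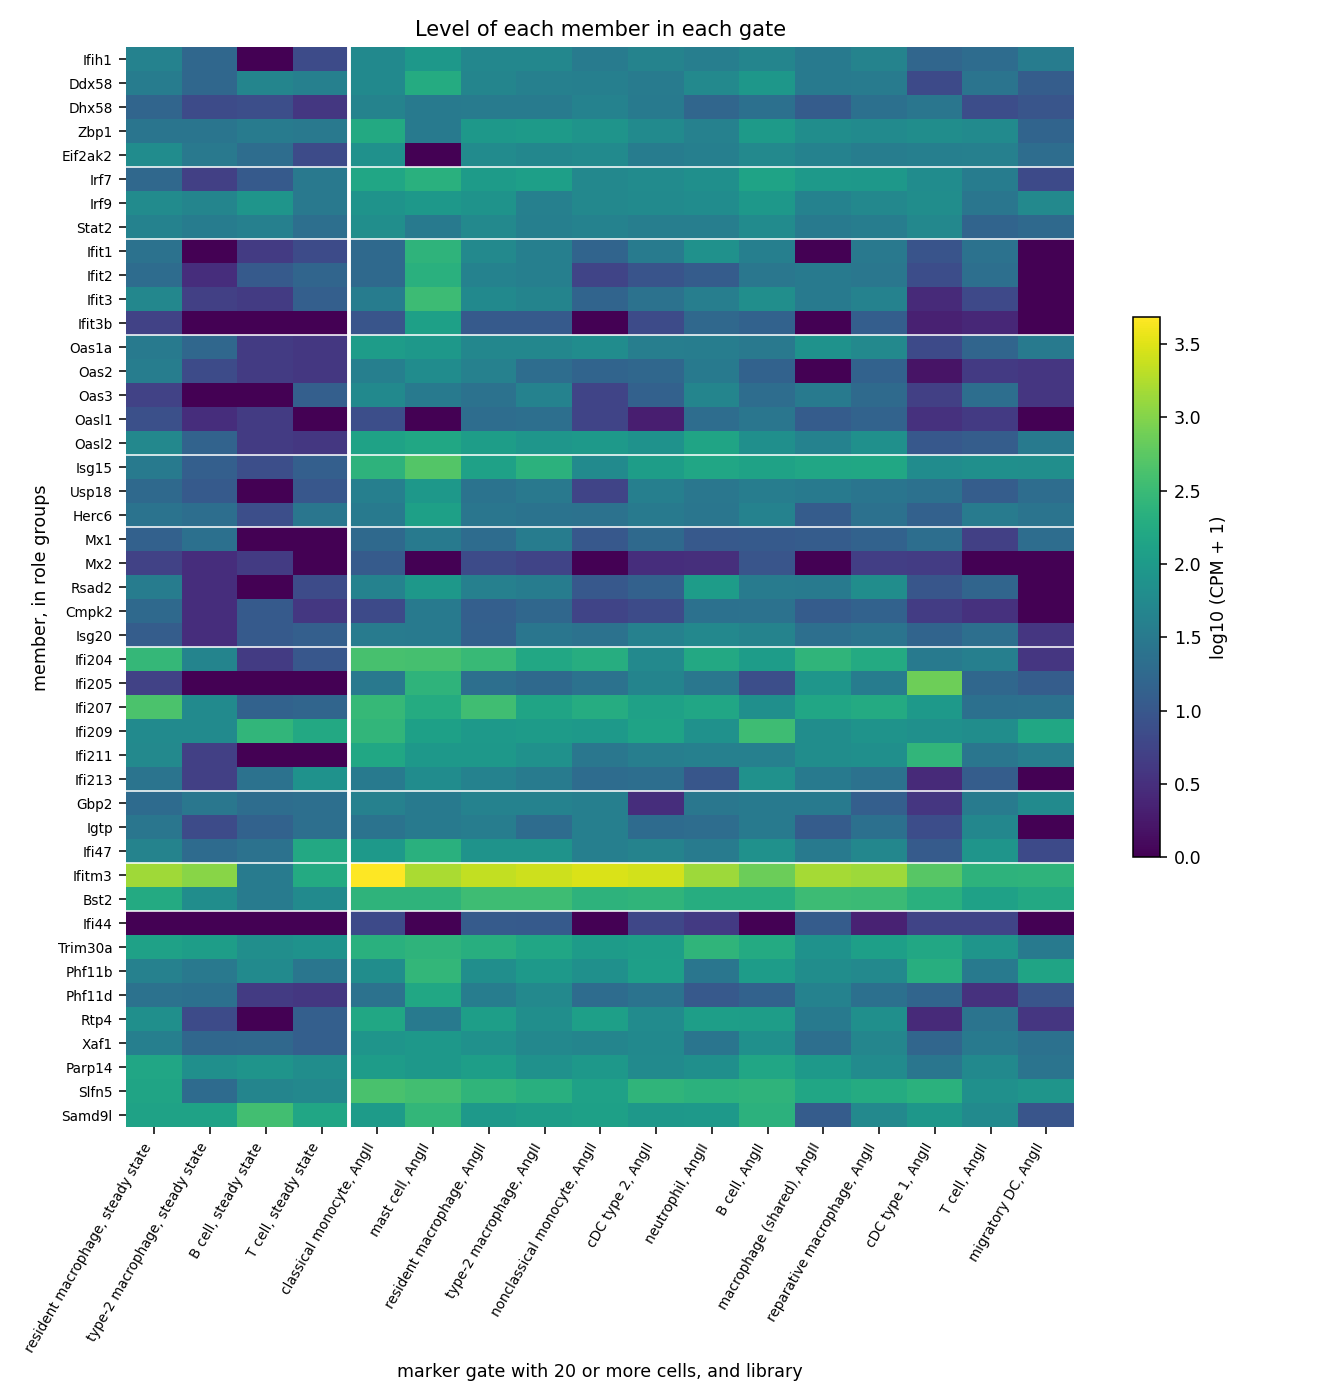
Level of each interferon-stimulated gene (rows, ordered by role) in the gates of at least 20 cells (columns), coloured by log10 of CPM + 1, with the 4 gates of the steady state library beside the 13 gates of the AngII library. *Ifitm3* is high in monocyte, macrophage and type-2 dendritic cell gates, *Ifi205* and *Ifi211* are highest in the type-1 dendritic cell gate (750 and 260 CPM), and *Rsad2*, *Isg20* and *Trim30a* are highest in the neutrophil gate.

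The gate in which a gene was highest differed within the set. At steady state, 30 of 44 genes with a UMI in the 4 gates were highest in the resident macrophage gate, 6 in the B cell gate, 6 in the T cell gate and 2 in the type-2 gate. On AngII, leaving out the mast cell gate with its 248 UMIs of the set, 17 of 45 were highest in the classical monocyte gate, 10 in the B cell gate, 6 in the neutrophil gate and 3 in the resident gate. The 17 were *Dhx58*, *Eif2ak2*, *Ifi204*, *Ifi47*, *Ifih1*, *Ifitm3*, *Irf7*, *Isg15*, *Mx2*, *Oas1a*, *Oas3*, *Rtp4*, *Slfn5*, *Stat2*, *Usp18*, *Xaf1* and *Zbp1*. Those of the B cell gate were *Cmpk2*, *Ddx58*, *Herc6*, *Ifi209*, *Ifi213*, *Ifit3*, *Irf9*, *Oasl1*, *Parp14* and *Samd9l*, and those of the neutrophil gate *Ifit1*, *Ifit3b*, *Isg20*, *Oasl2*, *Rsad2* and *Trim30a*. With the mast cell gate included, 19 genes were highest in it and 11 in the classical monocyte gate. The ranking used no interval, and some tops were near ties. *Dhx58* had 43.1 CPM in the classical and 42.4 CPM in the nonclassical monocyte gate, and *Mx2* had 10.3 CPM in the classical monocyte and 8.30 CPM in the B cell gate. The share of all genes that were highest in each gate was not computed, so these counts describe the set without a background.

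The spread among cells was read after each cell was thinned to 1000 UMIs, without *Ifitm3* and *Bst2* where stated. In the resident gate 110 steady state cells held a median of 3 UMIs of the whole set and 456 AngII cells a median of 5. The medians were 2 and 4 UMIs in the type-2 gate, 1 and 2 in the B cell gate and 1 and 1 in the T cell gate, and the 108 AngII cells of the classical monocyte gate had a median of 8. Without *Ifitm3* and *Bst2*, 76.4% of resident gate cells (67.3 to 83.9) at steady state and 87.5% (84.1 to 90.4) on AngII held at least 1 UMI of the set, against 97.3% and 89.5% before thinning. In the T cell gate these thinned shares were 62.2% and 54.5% (100% and 59.1% before thinning), and in the B cell gate 72.0% and 71.7% (100% and 81.5%). Cells under 1000 UMIs were left out, which took 2 steady state and 247 AngII cells from the resident gate, 0 and 153 from the type-2 gate, 0 and 153 from the T cell gate and 1 and 85 from the B cell gate. The B cell gate thus held its higher sum on AngII without a larger share of positive cells, with a maximum of 16 UMIs in a cell on AngII and 4 at steady state.

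**Figure D4:**
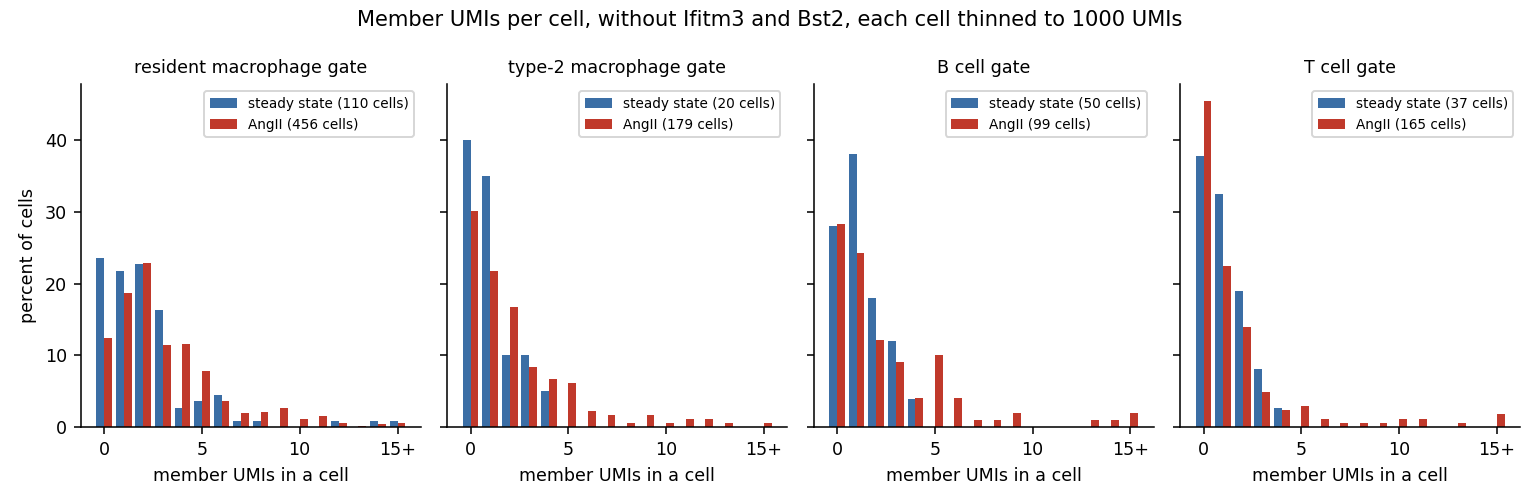
Share of cells (y axis, percent) by the number of UMIs of the 43 interferon-stimulated genes other than *Ifitm3* and *Bst2* (x axis), after each cell was thinned to 1000 UMIs, in the 4 gates compared between steady state and AngII. In the resident macrophage gate cells without any such UMI made up 23.6% at steady state and 12.5% on AngII.

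*Ifit* transcripts were found in few thinned cells of the gates given here. Of thinned cells in the resident gate, 4 of 110 (3.64%, 1.0 to 9.05) at steady state and 53 of 456 (11.6%, 8.83 to 14.9) on AngII held an *Ifit* UMI, against 19.6% and 18.8% before thinning. In the type-2 gate it was 0 of 20, with an upper interval limit of 16.8%, and 10 of 179 (5.59%). Before thinning the type-2 shares were 5.0% and 11.1%. The B cell gate had 1 of 50 and 6 of 99 cells (6.06%, 2.26 to 12.7), the T cell gate 1 of 37 and 11 of 165 (6.67%, 3.38 to 11.6) and the neutrophil gate on AngII 16 of 207 (7.73%). The migratory dendritic cell gate on AngII had 0 of 25, with an upper limit of 13.7%. Before thinning the shares were 7.84% and 14.1% in the B cell gate and 21.6% and 11.9% in the T cell gate. The AngII shares of the type-2 and B cell gates were thus no higher than that of the T cell gate, and the interval of the resident gate overlapped it.

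Cells with *Ifit* transcripts also held more of the other genes of the set. At least 2 *Ifit* UMIs were present in 22 of 306 steady state cells (7.19%) and 209 of 4198 AngII cells (4.98%), depths unmatched. In the resident gate on AngII, the 55 such cells held 6769 CPM of the 39 other genes that are neither *Ifit* nor *Ifitm3* or *Bst2*, and the 648 others 2255 CPM, a ratio of 3.00 (2.89 to 3.12). Such cells were deeper, with a median of 6946 UMIs against 1352. At steady state 10 of 112 resident gate cells had at least 2 *Ifit* UMIs, and there the levels were 7018 and 1746 CPM (4.02, 3.69 to 4.38) at median depths of 10574 and 9224 UMIs. The ratio on AngII was 6.40 in the type-2 gate (21 cells), 4.15 in the B cell gate (13 cells), 3.57 in the classical monocyte gate (9 cells), 3.11 in the neutrophil gate (16 cells) and 1.93 in the T cell gate (8 cells). It was 5.30 in the reparative macrophage gate (8 cells), and 3.085 (5 cells) and 3.67 (8 cells) in the type-1 and type-2 conventional dendritic cell gates. In the mast cell gate on AngII, 8 of 26 cells (30.8%) had at least 2 *Ifit* UMIs. Their median depth was 791.5 UMIs against 757.5 in the others, and the ratio was 3.625 (2.62 to 5.04).

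In the resident gate on AngII, genes with the highest ratios between these and other cells included viperin, secreted chemokines and the GTPase gene *Gbp4*. *Cxcl10*, which draws activated T cells, stood at 587 CPM in cells with *Ifit* transcripts and 18.7 CPM in the others (31.3, 23.4 to 42.8), and *Cxcl9* at 54.7 and 3.24 CPM (16.9). *Rsad2* stood at 166 and 12.2 CPM (13.5, 9.09 to 20.6), *Mx1* at 73.0 and 7.57 CPM (9.64), *Usp18* at 87.9 and 10.8 CPM (8.13), *Isg15* at 453 and 57.3 CPM (7.90) and *Irf7* at 303 and 60.6 CPM (5.01). *Gbp4*, which is no member of the set, stood at 43.1 and 1.44 CPM (29.9, 10.4 to 118) from 26 and 4 UMIs. *Ifitm3* was at 2966 and 2077 CPM (1.43) and *Ifi207* at 502 and 326 CPM (1.54). *Ifngr1*, a subunit of the interferon-γ receptor, stood at 259 and 341 CPM (0.759).

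**Figure D5:**
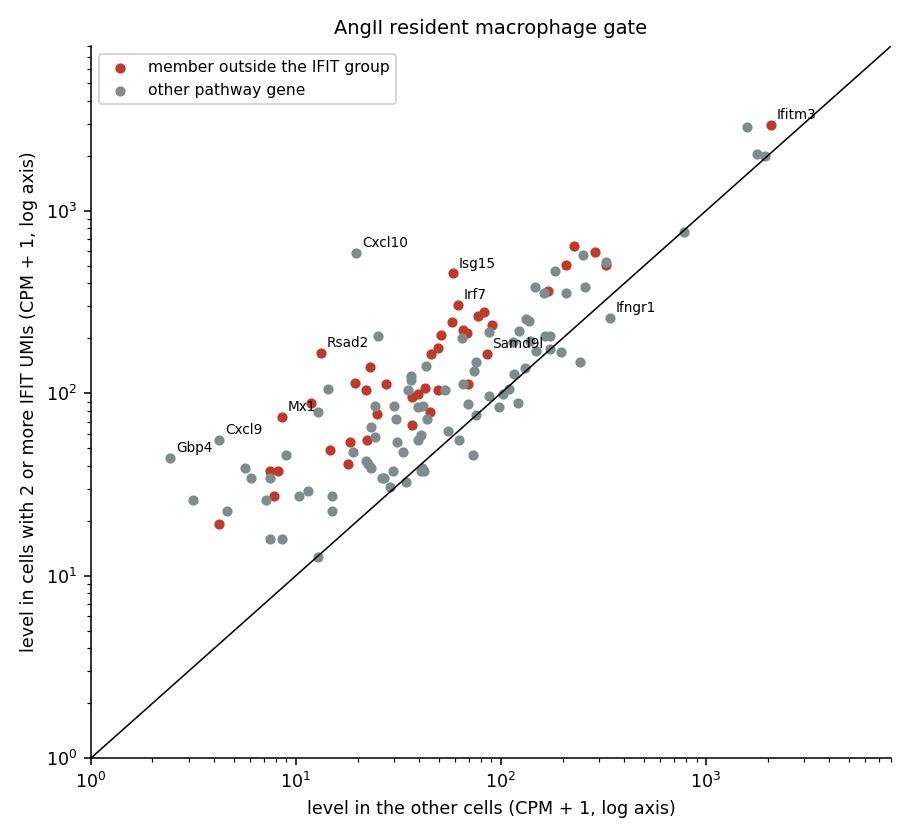
CPM + 1 of each gene in cells of the resident macrophage gate on AngII with at least 2 *Ifit* UMIs (y axis, 55 cells) against the other cells of that gate (x axis), both axes logarithmic. Genes above the diagonal were higher in cells with *Ifit* transcripts, with *Cxcl10* (587 and 18.7 CPM), *Rsad2* (166 and 12.2 CPM) and *Isg15* (453 and 57.3 CPM) far above it.

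Transcripts of the 11 interferon genes on the list were nearly undetected in both libraries. Other interferon genes were not looked up, and cells without CD45 were not sorted. *Ifna1*, *Ifna2*, *Ifna4*, *Ifna5*, *Ifna13*, *Ifnl2*, *Ifnl3* and *Ifne* had 0 UMIs in each library, and *Ifnb1* had 2 UMIs, both in 1 cell of the resident gate on AngII. *Ifng*, the interferon of T and natural killer cells, had 11 UMIs in 4 cells at steady state and 24 UMIs in 12 cells on AngII. Of these, 7 and 17 UMIs lay in the T and natural killer cell gates.

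Other genes of the pathway were read from lists, with the same background shares as above. Of all genes, 8.20%, 9.30%, 12.0% and 22.3% were at least 2-fold higher in the resident, type-2, B and T cell gates. In the same order, 8.06%, 6.13%, 5.84% and 7.14% were at least 2-fold lower. Of the receptor subunits and kinases, 0 of 8 were at least 2-fold higher in the resident and T cell gates, 1 of 8 in the type-2 gate and 2 of 8 in the B cell gate. *Jak1* in the T cell gate was the only one 2-fold lower, at 484 CPM at steady state and 221 CPM on AngII (0.457). *Ifngr2* stood at 48.2 and 104 CPM in the type-2 gate (2.16) and at 46.1 and 120 CPM in the B cell gate (2.59). Of the sensors and adaptors upstream of interferon genes, 2 of 14 were higher in the resident gate, the adaptor *Myd88* with 26.0 and 88.5 CPM (3.41, 2.34 to 5.14) and the kinase *Ikbke* with 7.79 and 28.1 CPM (3.61). In the type-2, B and T cell gates the counts were 3 of 12, 2 of 8 and 2 of 8. *Tbk1* in B cells was the only one lower (0.477).

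The signal transducers and brakes had 0 of 8 genes past 2-fold in the resident gate, 3 of 7 higher in the type-2 gate, 2 of 7 in the B cell gate and 1 of 8 in the T cell gate. The brake *Socs3* was at 16.5 and 169 CPM in B cells (10.3, 4.26 to 32.3). A list of 65 further interferon-stimulated genes gave 18 of 61 higher and 3 lower in the resident gate (median ratio 1.49), 27 of 50 and 0 in the type-2 gate (2.36), 17 of 45 and 0 in the B cell gate (1.57), and 9 of 48 and 5 in the T cell gate (0.970). In the resident gate *Ly6a*, which encodes the surface protein Sca-1, went from 2 UMIs (1.73 CPM) to 233 CPM (135, 37.1 to 1113), *Ms4a4c* from 5.20 to 154 CPM (29.6) and *Ifitm1* from 1.73 to 42.9 CPM (24.8). Lower in that gate were *Tgtp2* (0.195) and *Gm4951* (80.5 and 23.7 CPM, 0.294), and the helicase gene *Ddx60* stood at 128 and 55.4 CPM (0.432). In the B cell gate *Cxcl9* had 0 UMIs and 138 CPM and *Ifi27l2a* 362 and 1593 CPM (4.40). Promoters of this list held an ISRE match in 26 of 53 genes (49.1%).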

How the data were processed

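The authors sorted CD45-positive cells, prepared 10x Genomics 3' libraries and ran Cell Ranger 3.1.0 on GRCm38.p6, and deposited for each library a table of UMI counts without normalization. Cells passed the filter of the study (between 300 and 6500 genes found, no more than 5% of UMIs mitochondrial), and doublets were not removed. Cells were gated by 206 marker genes in 18 lists. A class needed at least 2 distinct markers and a score at least 1.5 times that of the next lineage, a margin settled after marker levels had been seen. UMIs were summed per gate and given as CPM with exact Poisson intervals, ratios with exact conditional binomial intervals and shares with Clopper-Pearson intervals, at 95%. Ratios were given for gates with at least 20 cells in both libraries and for genes with at least 20 UMIs in both together. A gene at 0 UMIs at steady state was bounded against 3 UMIs in that gate. A gene counted as higher or lower past 2-fold. Depth was 3647973 UMIs in 306 cells at steady state and 18008885 in 4198 cells on AngII, so cells were thinned to 1000 UMIs for comparisons per cell. Genes named were, per role, the 2 with most UMIs, those highest in another gate than the set, the 10 with the largest resident gate ratio and those below 1 there, and per pathway list up to 5 past 2-fold. Cells with *Ifit* transcripts, the *C1q* split, the plasmacytoid dendritic cells and examples in other gates were chosen after values were seen. Near-identical genes were found by shared 31-base words. The steps were tested on simulated counts. The alternatives changed the cell filter, gates, depth, denominator and genes used. Of the pathway genes, 1 is counted in its list but its values are not reported here. The members and lists were chosen with earlier results of these data known. Sums and intervals were computed with SciPy 1.17.1 and pandas 2.3.3 in Python 3.11.15 (NumPy 2.4.6).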

Additional observations from a re-analysis of the deposited data

Results flagged for a closer look

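A few genes of the set lay above 1 in some gates and below 1 in others, each with an interval that left out 1, and these differences between gates were not tested. *Ifi207* had a ratio of AngII to steady state of 2.54 in the type-2 macrophage gate and 5.04 in the B cell gate, but 0.829 in the resident macrophage gate. *Parp14* had 1.87 in the B cell gate and 0.781 in the resident gate. In the T cell gate *Ifi209* stood at 0.380, *Ifi213* at 0.149 and *Ifi47* at 0.494, whereas the resident, type-2 and B cell gates had 1.63, 1.87 and 1.33 for *Ifi209*, 1.66, 8.13 and 3.17 for *Ifi213* and 1.81, 4.20 and 3.09 for *Ifi47*.

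Cells left in no class for want of a clear top score were in no comparison. They held 3192 CPM of the set at steady state and 5281 CPM on AngII.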

How the results depend on the processing

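No paired analysis was possible because each condition had 1 library, and no replicate could be left out. Summed ratios of AngII to steady state, given for the resident macrophage, type-2 macrophage, T cell and B cell gates, ranged from 0.939 to 1.57, 1.83 to 3.54, 0.504 to 2.0 and 1.63 to 3.09 over 15, 15, 16 and 16 alternatives. Without cells holding markers of an unrelated lineage they were 0.939, 3.54, 0.780 and 2.01, and without the top cell as well 1.19, 3.54, 0.504 and 1.63. Other values that moved were, for the resident gate, 1.52 (all barcodes), 1.40 (mean over cells), 1.38 (without *Ifitm3* and *Bst2*), 1.54 (without the top cell), 1.56 (clusters) and 1.53 (no margin). For the type-2 gate they were 2.26 and 3.41 (thinned to 1000 and 2000 UMIs), 2.48 (mean over cells), 2.94 (without *Ifitm3* and *Bst2*), 3.1 (without *Ifitm3*) and 1.83 (clusters). T cells had 2.0 and 1.44 (thinned), 1.76 (mean over cells), 1.0 (no mitochondrial or ribosomal genes in the denominator), 1.0 (no margin) and 0.935 (at least 4000 UMIs). B cells had 2.63 (all barcodes), 2.62 (thinned to 1000), 2.64 (mean over cells), 2.39 (without *Ifitm3* and *Bst2*), 2.48 (without *Ifitm3*), 2.39 (clusters) and 2.38 (no margin).

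Genes at least 2-fold higher, 13, 32, 13 and 25 in the report, were 1 in the resident, 0 in the T cell and 0 in the B cell gate without cells of an unrelated lineage, and 0 and 0 in T and B cells without the top cell as well. Thinning to 1000 UMIs gave 6, 2 and 3 in the type-2, T and B cell gates, and to 2000 UMIs 8, 10, 3 and 5 in all 4. Clusters gave 17, 8 and 14 in the type-2, T and B cell gates, cells without *C1q* 8 and 16 in T and B cells, cells of at least 4000 UMIs 8 in T cells, and a fold of 1.5 gave 26 in the resident gate. Genes at least 2-fold lower, 0, 0, 4 and 0 in the report, were 7 in the resident and 0 in the T cell gate without those cells, 1 and 0 without the top cell as well, 1 and 1 in T and B cells thinned to 1000 UMIs, 0 in T cells thinned to 2000, 1 in the type-2 gate by clusters, and 1 in B cells at a fold of 1.5. The cause of these moves was not tested. Where cells were dropped or thinned, the floor of 20 UMIs was kept and the number of genes reaching it was not recorded. Those counts therefore cannot be set against the counts in the report. The settings with no margin, without *Ifitm3*, with at least 4000 UMIs, without *C1q* and with the top cell left out beside the marker filter were chosen after seeing the data. The classical monocyte gate was highest on AngII in 12 of 15 alternatives, and the mast cell gate in the means over cells and without *Ifitm3*, alone or with *Bst2*. Depth limits the steady state side, with 20 cells in the type-2 gate.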

Other observations

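Within macrophage gates, cells with a UMI of the eYFP reporter, which marks descendants of *Rank*-expressing cells, were set against cells without one, though cells with it were deeper. In the resident gate the set took 4036 CPM in 85 cells with and 3404 CPM in 27 cells without reporter UMI at steady state (ratio 1.19, 1.08 to 1.30), and 6216 CPM in 189 and 5256 CPM in 514 cells on AngII (1.18, 1.15 to 1.22). For the type-2 gate at steady state it was 2085 CPM in 10 cells with and 2026 CPM in 10 cells without it (1.03, 0.907 to 1.17), and without *Ifitm3* and *Bst2* the ratio was 1.42 (1.16 to 1.73). On AngII type-2 gate cells with it were lower, with 4679 CPM in 34 cells with and 5832 CPM in 298 cells without it (0.802, 0.760 to 0.847). The reparative macrophage gate on AngII held 2669 CPM in 26 and 4388 CPM in 261 cells (0.608, 0.570 to 0.649). The shared macrophage gate on AngII held 1869 CPM in 13 and 4567 CPM in 86 cells (0.409, 0.288 to 0.567). Median depths were 10682 and 5153 UMIs in the resident gate at steady state, 7406 and 1156 on AngII, 28572 and 21086 in the type-2 gate at steady state, 2917 and 1014 on AngII, 1127 and 657 in the shared macrophage gate and 12490 and 1125 in the reparative gate, and the part of depth in these ratios was not tested.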
